A study of Mus musculus with 14 samples.

Results

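The 83 nuclear genes of oxidative phosphorylation (OXPHOS) were followed in whole mouse fetuses at E12.5, of 18132 named genes in all. Members were taken by gene name alone: the numbered subunits of Ndufa, Ndufb, Ndufc, Ndufs and Ndufv, Sdha to Sdhd, and names that begin with Uqcr, with Cox and a digit of 4 to 8, or with Atp5. A further 2 names with the ending -ps (Atp5pb-ps and Cox5b-ps) were left out. By these names 37 genes belong to complex I, 4 to complex II, 8 to complex III, 16 to complex IV and 18 to complex V. Names do not follow biochemistry throughout: Ndufa4 is counted in complex I by its name although the protein is now placed in complex IV, while Ndufab1 of complex I and Cyc1 of complex III escape the rule. Of the 83, 82 had a mean value of at least 10 and were tested, and the muscle isoform Cox8b was not.

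RNA was sequenced from fetuses that grew from zygotes injected either with a let-7f-5p mimic, called Str - let7f in the labels and given at a dose they describe as stress-relevant, or with the nuclease-free water in which it was dissolved (vehicle). The groups were 3 let-7f females, 5 vehicle females, 2 let-7f males and 4 vehicle males. All fetuses were of the strain F1 C57BL/6Jx129S1/SvlmJ and of WT genotype, had been cultured in KSOM after injection and were carried by CD1 pseudopregnant recipient dams. No label ties a fetus to a dam or litter, so fetuses of 1 group may be littermates, and the p-values speak only of how far these fetuses vary. The series title asks how let-7f at the zygote stage bears on development and on growth in each sex.

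Oxidative phosphorylation is carried out in the inner mitochondrial membrane. Complexes I and II take electrons from NADH and succinate, complex III passes them on to cytochrome c, and complex IV hands them to oxygen; complexes I, III and IV pump protons, and complex V (ATP synthase) uses the proton gradient to make ATP. Complex II is encoded wholly in the nucleus, whereas the other complexes join nuclear subunits with a few core subunits made from mitochondrial DNA. Midgestation embryos change from a largely glycolytic metabolism towards respiration, with the heart among the early users.

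Recovered reads (the deposited values divide whole numbers by a factor particular to each library; these numbers may be rounded estimates, since kallisto is among the tools named) came to between 27709934 in let-7f male 1 and 42898166 in let-7f female 1. Let-7f male 1 and vehicle male 2 stood apart from the rest before any comparison was made. Cytosolic ribosomal protein genes held 15.8% of the summed values in let-7f male 1, 9.43% in vehicle male 2 and between 3.92% and 6.94% in the other 12 libraries. Vehicle female 2 held 0.00416% of its values in liver genes, against at least 0.105% in every other library. Heart muscle genes, which mark a tissue rich in mitochondria, held 0.277% in let-7f male 1 and between 0.0766% and 0.163% elsewhere, and all 12 of their markers were above 0 in every library. Since whole fetuses were measured, fewer cells of a type and less RNA per cell cannot be told apart.

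The let-7f-5p mimic and the only 3′ UTR seed match among the members are shown first. Other kinds of site, and sites outside 3′ UTRs, were not searched. Whether the injected RNA was still present at E12.5 is not shown by these data. The mature sequence of mouse let-7f-5p (RefSeq, GRCm38.p6) was the same as that of the mimic in the labels; capitals mark its seed, bases 2 to 8. In the site of Cox7b (chrX:106022195-106022201, plus strand, GRCm38), capitals mark the 7 bases that match the seed.
let-7f-5p: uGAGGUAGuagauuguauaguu
Cox7b site: cttactgccctCTACCTCgtggttatattt

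The letters searched on the sense strand of 3′ UTRs were CTACCTCA, CTACCTC and TACCTCA. Of the 79 members with an annotated 3′ UTR (GENCODE M21), 1 held a match (1.27%), against 15.4% of the tested genes (2389 of 15482). OXPHOS 3′ UTRs were short, with a median of 156 bases against 1028 over the tested genes. Among genes whose 3′ UTR was between 96 and 296 bases long, the middle range of the members, 2.33% held a match (50 of 2151). The match in Cox7b begins at base 372 of a UTR of 627 bases.

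Cox7b, a small X-linked subunit of complex IV, had values of 1428, 1589 and 2256 in let-7f females, against 2534, 1499, 1527, 1890 and 1932 in vehicle females. In males it stood at 3718 and 1826 with let-7f, against 1649, 3334, 1515 and 1569 with vehicle. The groups overlapped in both sexes. Its log2 change was -0.10 (SE 0.299) in females and 0.45 (SE 0.354) in males, with limma adjusted p-values of 0.9998 and 0.540; without let-7f male 1 the male value was -0.06.

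Summed over all members, OXPHOS genes held 0.712%, 0.670% and 0.969% of the values of the let-7f females, against 1.10%, 0.7096%, 0.703%, 0.939% and 0.888% of the vehicle females. In males they held 2.08% and 0.793% with let-7f, against 0.7101%, 1.42%, 0.675% and 0.712% with vehicle. Let-7f male 1 was thus the highest of the 14 libraries and vehicle male 2 the next, and neither sex showed groups that separated. The group means were 0.784% ± 0.162 (SD, n = 3) against 0.868% ± 0.167 (SD, n = 5) in females and 1.44% ± 0.911 (SD, n = 2) against 0.880% ± 0.362 (SD, n = 4) in males. The 7 libraries with the largest OXPHOS share were also the 7 with the largest cytosolic ribosomal protein share, in the same order.

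**Figure D1:**
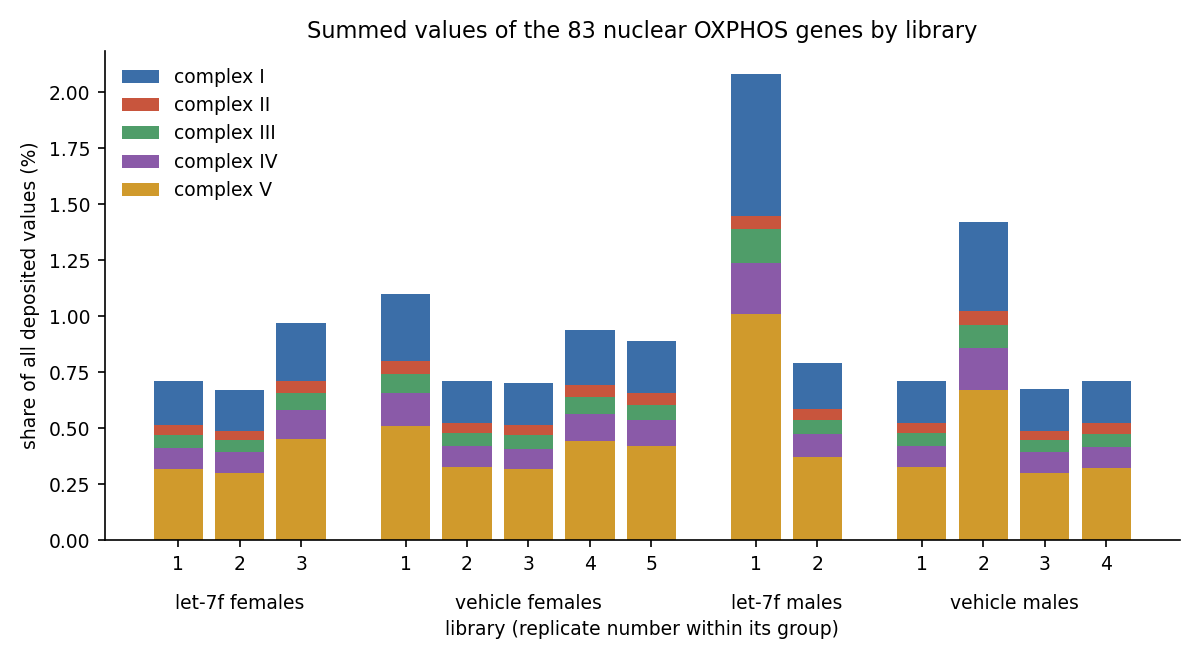
Share of all deposited values (%, y axis) held by the nuclear OXPHOS genes in each library (x axis, replicate numbers within the 4 groups), stacked by complex. Let-7f male 1 reaches 2.08% and vehicle male 2 reaches 1.42%, while the other libraries lie between 0.670% and 1.10%, and the red band of complex II keeps nearly the same height throughout.

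The complexes did not move as one block in let-7f male 1. Complex V held 1.01% of all values there, against a range of 0.302% to 0.671% in vehicle males, and complex I held 0.634% against 0.184% to 0.397%. Complex III stood at 0.152% against 0.0533% to 0.106%, and complex IV at 0.227% against 0.0915% to 0.187%. Complex II lay inside the vehicle range, at 0.0563% against 0.0433% to 0.0615%. Within the OXPHOS total, complex II therefore made up 2.71% in let-7f male 1, 4.32% in vehicle male 2 and between 5.12% and 6.42% in the other 12 libraries. Complex II transcripts, of 1142 to 3171 bases, were long for members (median 693.5 bases), and the part of length was not tested.

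In females, let-7f and vehicle fetuses did not separate for any complex. By limma on log2(value + 1), 0 of 82 members passed an adjusted p of 0.05, against 0.00575% of all 17400 genes tested, and 0 had an unadjusted p under 0.05, against 0.81% of all genes. EdgeR and DESeq2 on the recovered reads likewise called 0 members (0% and 0.0115% of all genes), with 0 at an unadjusted p under 0.05. The fitted values leaned low, with 78 of 82 members lower in let-7f females and a median log2 change of -0.19, against 50.9% of all genes and a median of -0.0039 over them; 4 members and 49.1% of all genes were higher. Medians were -0.17 for complex I, -0.13 for complex II, -0.22 for complex III, -0.14 for complex IV and -0.25 for complex V. The median of all members ranged from -0.36 without let-7f female 3 to -0.06 without let-7f female 2, and was -0.08 without vehicle female 1, the vehicle female with the highest OXPHOS share. Liver markers were higher in let-7f females for 10 of 11 genes (median 1.47), with a summed share of 0.170% to 0.240% in let-7f females, against 0.00416% to 0.371% in vehicle females. Skeletal muscle markers were higher for 13 of 13 (median 0.22), with a share of 0.121% to 0.142%, against 0.0753% to 0.166%, and erythroid markers for 9 of 9 (median 0.45), with a share of 0.682% to 0.909%, against 0.177% to 1.59%. The low ends for liver (0.00416%) and erythroid genes (0.177%) were both vehicle female 2, so these 2 medians rest in part on 1 library. No marker of these lists was at 0 in any library, 0 passed by limma (0 at an unadjusted p under 0.05), edgeR or DESeq2, and their part in the female values was not tested. By edgeR, as by DESeq2, these medians were smaller, at 0.29 for liver (9 of 11 higher), 0.10 for skeletal muscle (13 of 13) and 0.18 for erythroid markers (6 of 9).

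Sdhc, a membrane anchor of complex II, had the smallest p-value of the members lower in females. Its values were 2132, 1923 and 2498 in let-7f females, against 2851, 2261, 2152, 2740 and 2588 in vehicle females. The ranges overlapped, and the log2 change was -0.20 (SE 0.189, adjusted p = 0.9998). Sdha, the flavoprotein that oxidises succinate, had 7481 ± 858 (SD, n = 3) in let-7f females and 8088 ± 562 (SD, n = 5) in vehicle females. Atp5f1a, the alpha subunit of ATP synthase, averaged 27572 ± 3743 and 30365 ± 2165 in the same groups. At the other end, Ndufs5 of complex I (log2 change 0.11, SE 0.420) and Cox6a2 of complex IV (0.07, SE 0.447) stood slightly higher, both within the spread of the libraries.

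In males, 0 of 82 members passed by limma, where 0% of all genes did, and 6 had an unadjusted p under 0.05 against 10.8% of all genes. The smallest adjusted p was 0.447. EdgeR and DESeq2 also called 0 members, where they called 0% and 0.333% of all genes. At an unadjusted p under 0.05 they had 36 and 43 members. For these 2 tools, shares of all genes are given for adjusted calls only, so their unadjusted counts are not set against a background. Fitted values lay higher in let-7f males for 79 of 82 members, against 49.9% of all genes, and lower for 3 (50.1% of all genes), with a median of 0.77 on the log2 scale against -0.0019 over all genes. That median came from 1 library: it was -0.10 without let-7f male 1, with 20 of 82 members higher, and 1.66 without let-7f male 2. Without both let-7f male 1 and vehicle male 2, an alternative chosen after seeing the data, it was 0.19, with 77 of 82 members higher and 0 called. Embryonic globin genes, markers of primitive red cells, held 1.03% and 0.641% of the values in let-7f males, against 0.356%, 0.454%, 0.244% and 0.324% in vehicle males (DESeq2 called 2 of the 3, limma and edgeR 0, each tool with 3 at an unadjusted p under 0.05), and their part in the result was not tested.

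Without let-7f male 2, 66 members passed in males, against 25.2% of all genes; the lone let-7f male is then assumed to vary like the other groups. These were 65 that rose in let-7f male 1 (33 of complex I, 1 of complex II, 6 of complex III, 13 of complex IV and 12 of complex V) and 1 that fell, the complex III core protein Uqcrc2 (log2 change -0.67, limma adjusted p = 0.0178). The call thus describes let-7f male 1 rather than the treated males, since let-7f male 2 lay above all 4 vehicle males in 2 of 82 members (13.9% of all genes) and let-7f male 1 in 78 (34.9%). Against vehicle males 1, 3 and 4 alone, let-7f male 2 was higher in 62 of 82 members, where 31.5% of all genes were. In no member did both let-7f males lie above or below all vehicle males (4.14% and 5.9% of all genes), and in no member did the female groups separate (0.787% and 0.707%).

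As the mean over both sexes, 0 of 82 members passed (0% of all genes) and 0 had an unadjusted p under 0.05 by limma (2.78% of all genes). EdgeR and DESeq2 called 0 members, where they called 0% and 0.046% of all genes. At an unadjusted p under 0.05 they had 0 and 4 members, with no share of all genes set beside them. Fitted values were higher for 79 members (51.3% of all genes) and lower for 3 (48.7%). The median was 0.32 with all libraries and -0.14 without let-7f male 1. Without let-7f male 2, 5 members passed (5.02% of all genes): Ndufv1, Ndufa11, Cox4i2, Cox5b and Atp5me, with log2 changes between 0.99 and 1.66.

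The let-7f change was also compared between the sexes, male minus female. By limma 0 of 82 members passed (0% of all genes), and 1 had an unadjusted p under 0.05 (8.53% of all genes). EdgeR and DESeq2 called 0, where DESeq2 called 0.138% of all genes. At an unadjusted p under 0.05 they had 23 and 33, again with no share of all genes set beside them. The difference was above 0 for 79 members (49.5% of all genes) and below 0 for 3 (50.5%). The median difference was 1.002 with all libraries, 0.09 without let-7f male 1 and 1.83 without let-7f male 2. In that last setting 55 members passed, against 18.4% of all genes, with Uqcrc2 again the 1 that was lower (log2 difference -0.65, limma adjusted p = 0.0451).

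**Figure D2:**
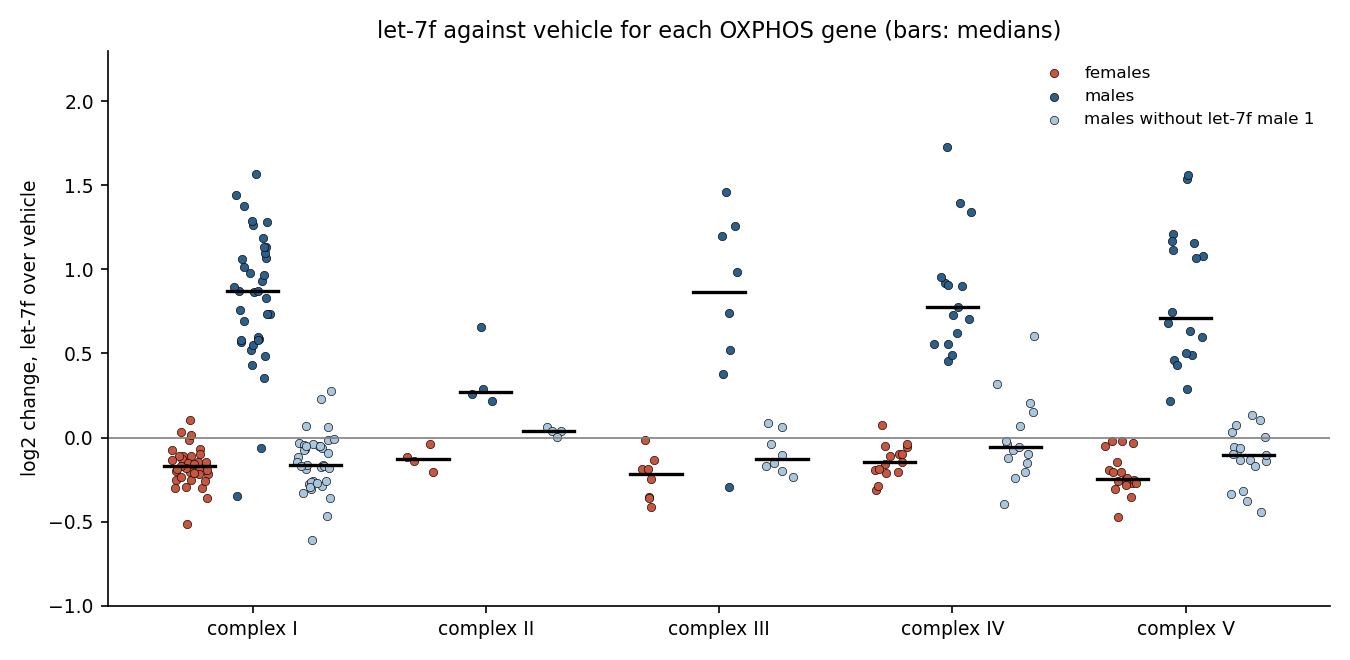
Log2 change of let-7f over vehicle (y axis, from log2(value + 1)) for each of the 82 tested OXPHOS genes, by complex, in females, in males and in males without let-7f male 1; bars are medians. Female medians lie between -0.25 and -0.13, and male medians between 0.27 and 0.87 come down to between -0.16 and 0.04 without let-7f male 1.

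The 3 members with the smallest p-values in males were Cox7a1, Cox4i2 and Ndufa12. Cox7a1, the heart and skeletal muscle isoform of complex IV subunit VIIa, had values of 252 and 52.1 in let-7f males, against 22.5, 93.1, 22.1 and 28.4 in vehicle males. Vehicle male 2 lay above let-7f male 2, so the groups overlapped, and the log2 change was 1.73 (SE 0.641, adjusted p = 0.447) with all libraries and 0.60 without let-7f male 1. The hypoxia-responsive isoform Cox4i2 stood at 564 and 100.3 in let-7f males, against 74.4, 183, 65.6 and 73.7 in vehicle males. Again vehicle male 2 exceeded let-7f male 2; the log2 change was 1.39 (SE 0.571) and 0.15 without let-7f male 1. Ndufa12, an accessory subunit of complex I, had 4076 and 1784 with let-7f, against 1161, 2445, 1416 and 1176 with vehicle (log2 change 0.87, SE 0.360, and 0.28 without let-7f male 1).

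Member by member, let-7f male 1 was the highest of all 14 libraries in 78 of 82 members, against 30.4% of all genes. The exceptions were Ndufs1 and Uqcrc2, which were lowest of all there, Ndufb4, which was highest in vehicle female 1, and Sdhd, which was highest in vehicle male 2. Vehicle male 2 was above the other 3 vehicle males in 80 of 82 members (41.4% of all genes), and the 2 exceptions were the same Ndufs1 and Uqcrc2. At the low end, let-7f female 2 was the lowest library in 31 members, vehicle male 3 in 25 and vehicle male 1 in 10. Let-7f male 1 reached at least 2 times the vehicle male mean in 66 of 82 members (15.6% of all genes), with a median ratio of 2.94 and a range of 0.629 for Uqcrc2 to 9.74 for Atp5me.

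**Figure D3:**
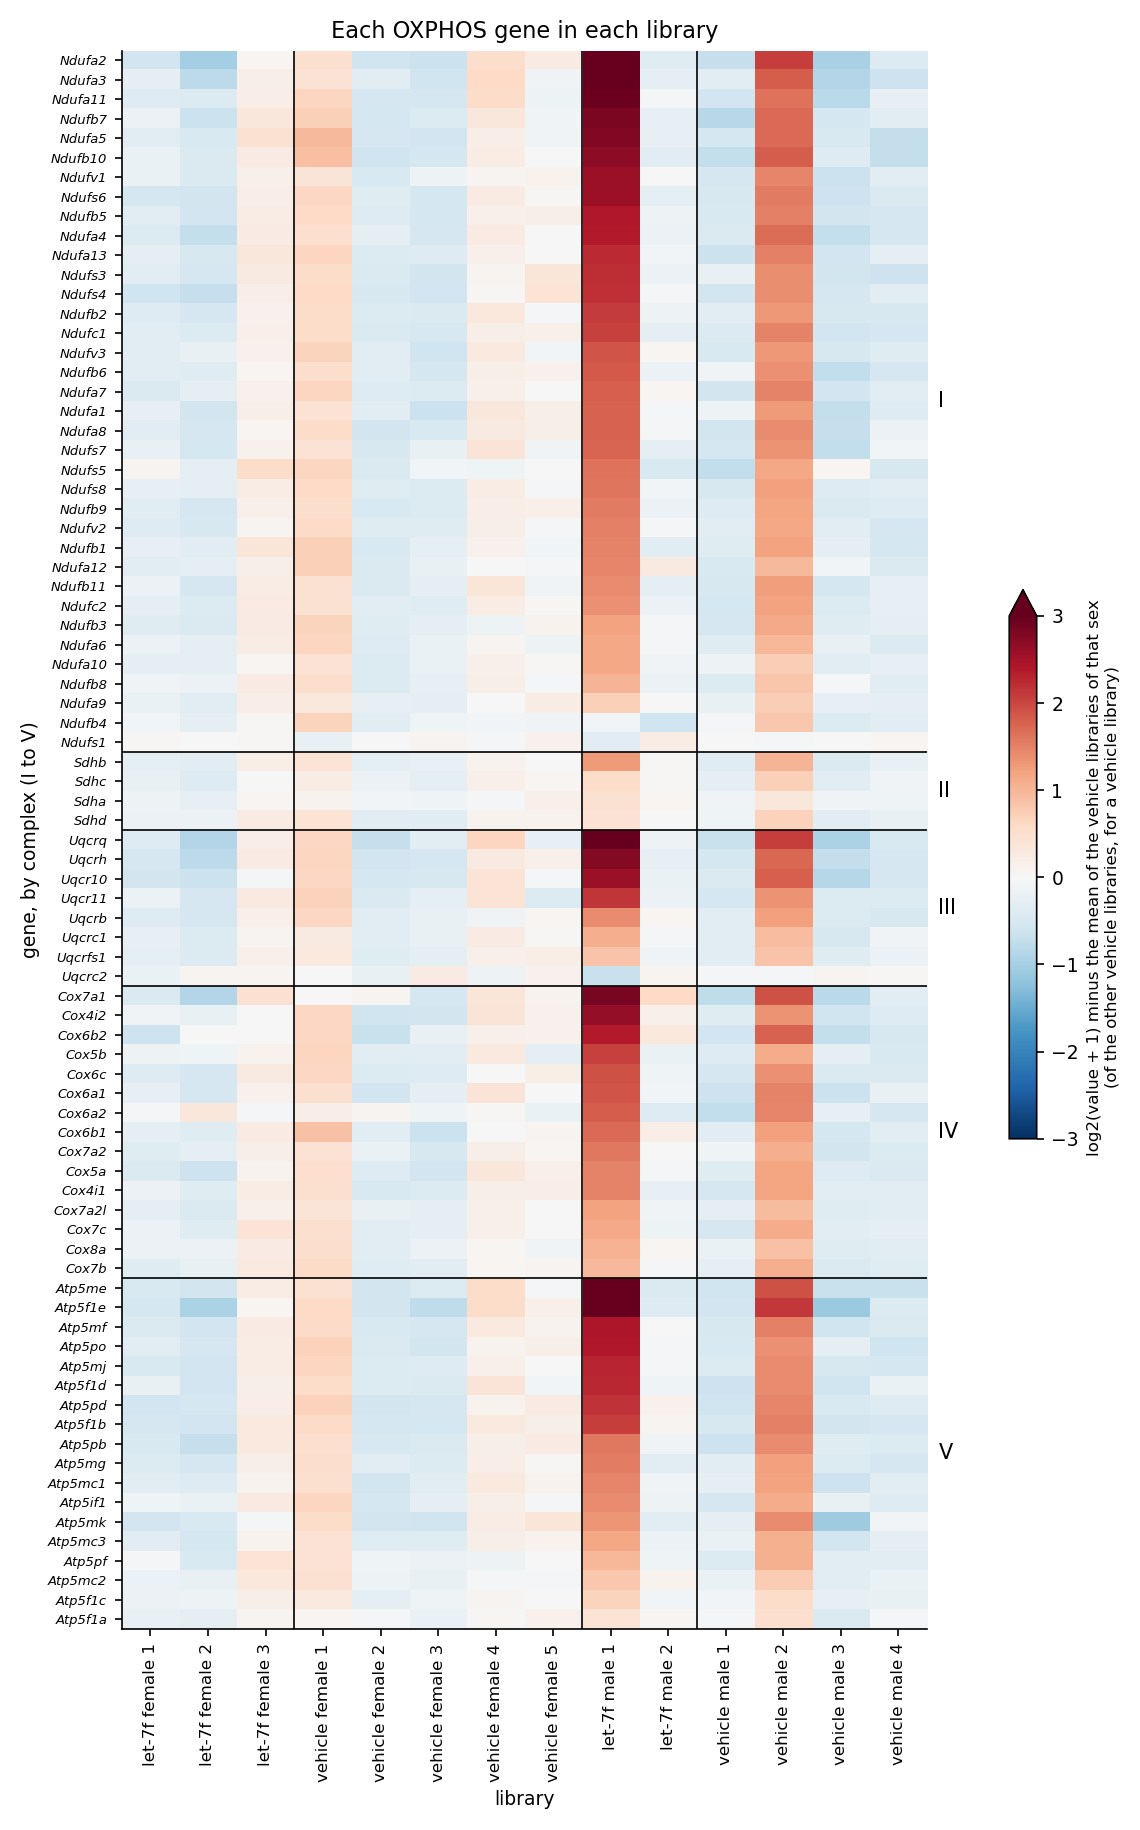
OXPHOS genes (81 rows, by complex) in each library (columns): colour is log2(value + 1) minus the mean of the vehicle libraries of the same sex, or of the other vehicle libraries for a vehicle library, with values over 3 shown at the darkest red. The columns of let-7f male 1 (median 1.66) and vehicle male 2 (median 1.27) are red nearly throughout, apart from the rows of Ndufs1 and Uqcrc2, and the remaining columns have medians between -0.44 and 0.54.

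Complex I showed both extremes. Ndufv1, the NADH-binding flavoprotein, had values of 27198 and 4512 in let-7f males, against 3501, 9743, 3255 and 3799 in vehicle males. Its female values were 4091, 3487 and 5193 with let-7f, against 5833, 3656, 4321, 4908 and 4975 with vehicle, so that only let-7f male 1 and vehicle male 2 left a band of 3255 to 5833. Ndufs1, the largest iron-sulfur subunit of the same complex, had values of 3048 and 4548 in let-7f males, against 3928, 3759, 3859 and 3996 in vehicle males. Here let-7f male 1 was the lowest and let-7f male 2 the highest of all libraries. In females Ndufs1 stood at 4015, 3941 and 4021 with let-7f, against 3505, 3985, 4124, 3893 and 4259 with vehicle, and its highest value over all libraries was 1.49 times its lowest, the narrowest range of any member. The accessory subunit Ndufb4 had 293 and 203 in let-7f males, against 300.4, 474, 249 and 259 in vehicle males; its log2 change was -0.34 (SE 0.280, adjusted p = 0.556), and -0.61 without let-7f male 1.

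Ndufb7, an accessory subunit, had 24493 in let-7f male 1 and 2900.0 in let-7f male 2, against 2246, 8341, 2623 and 2935 in vehicle males. Ndufa2, another accessory subunit, had the widest range of the tested members, its highest library standing 20.1 times above its lowest. Over the 37 complex I genes, let-7f male 1 was between 0.785 and 8.90 times the vehicle male mean, with a median of 3.12, and 32 of them reached at least 2 times.

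Complex II moved least. Its transcripts were long for members, at 2900 bases for Sdha, 1142 for Sdhb, 3171 for Sdhc and 1231 for Sdhd. Steps in let-7f male 1 were smaller in longer transcripts, as given below, and the part of length was not tested. Sdha had values of 10795 and 8290 in let-7f males, against 7519, 9504, 7463 and 7386 in vehicle males. Let-7f male 2 thus lay above 3 of the 4 vehicle males and below vehicle male 2, and the log2 change was 0.26 (SE 0.157, adjusted p = 0.466), and 0.07 without let-7f male 1. Sdhb, which carries the iron-sulfur clusters, was the only complex II gene past 2 times the vehicle male mean in let-7f male 1, with 10403 and 4427 in let-7f males, against 3541, 7315, 3439 and 3849 in vehicle males. For Sdhd, the other membrane anchor, let-7f male 1 had 2875 and vehicle male 2 had 3052. The 4 ratios of let-7f male 1 to the vehicle male mean ran from 1.31 to 2.29, with a median of 1.39.

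In complex III, the hinge protein gene Uqcrh had values of 28248 and 3579 in let-7f males, against 3219, 10366, 2911 and 3237 in vehicle males. Uqcrfs1, the Rieske iron-sulfur protein, had 4457 and 2282 in let-7f males, against 2071, 3837, 2030 and 2239 in vehicle males, a narrower step. Uqcrc2 had 2719 and 4578 in let-7f males, against 4220, 4195, 4498 and 4376 in vehicle males, and 3867, 4673 and 4698 in let-7f females, against 4451, 3917, 5115, 4098 and 4759 in vehicle females. Let-7f male 1 was the only library below 3867, while vehicle male 2, high for nearly every other member, was among the vehicle males here. The log2 change of Uqcrc2 in males was -0.29 (SE 0.185, adjusted p = 0.474), and 0.08 without let-7f male 1.

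The 15 tested complex IV genes stood between 1.84 and 6.07 times the vehicle male mean in let-7f male 1, with a median of 3.01. Cox4i1, the widely used isoform of the subunit that binds near cytochrome c, had 28698 and 8680 in let-7f males, against 7857, 18878, 8597 and 8629 in vehicle males. Cox5b, a zinc-binding subunit, had 4319 and 911 in let-7f males, against 856, 1877, 912 and 829 in vehicle males. Both genes were high in let-7f male 1 and vehicle male 2 alone among the males.

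In complex V, the catalytic beta subunit gene Atp5f1b had values of 141667 and 35252 in let-7f males, against 26174, 73592, 25245 and 25835 in vehicle males. The alpha subunit gene Atp5f1a, which forms the same ring, had 36774 and 28452 in let-7f males, against 27356, 36117, 22176 and 27263 in vehicle males. Let-7f male 1 was therefore 1.30 times the vehicle male mean for Atp5f1a, the lowest ratio in complex V, and close to vehicle male 2. The epsilon subunit gene Atp5f1e reached 66597 and 4712 in let-7f males, against 4548, 18323, 3412 and 4917 in vehicle males. In females Atp5f1e stood at 4944, 3686 and 7396 with let-7f, against 9958, 5254, 4647, 9620 and 7773 with vehicle. Atp5if1, the inhibitor that stops ATP synthase from running backwards, had 11313 and 3863 in let-7f males, against 3283, 7583, 3801 and 3492 in vehicle males.

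**Figure D4:**
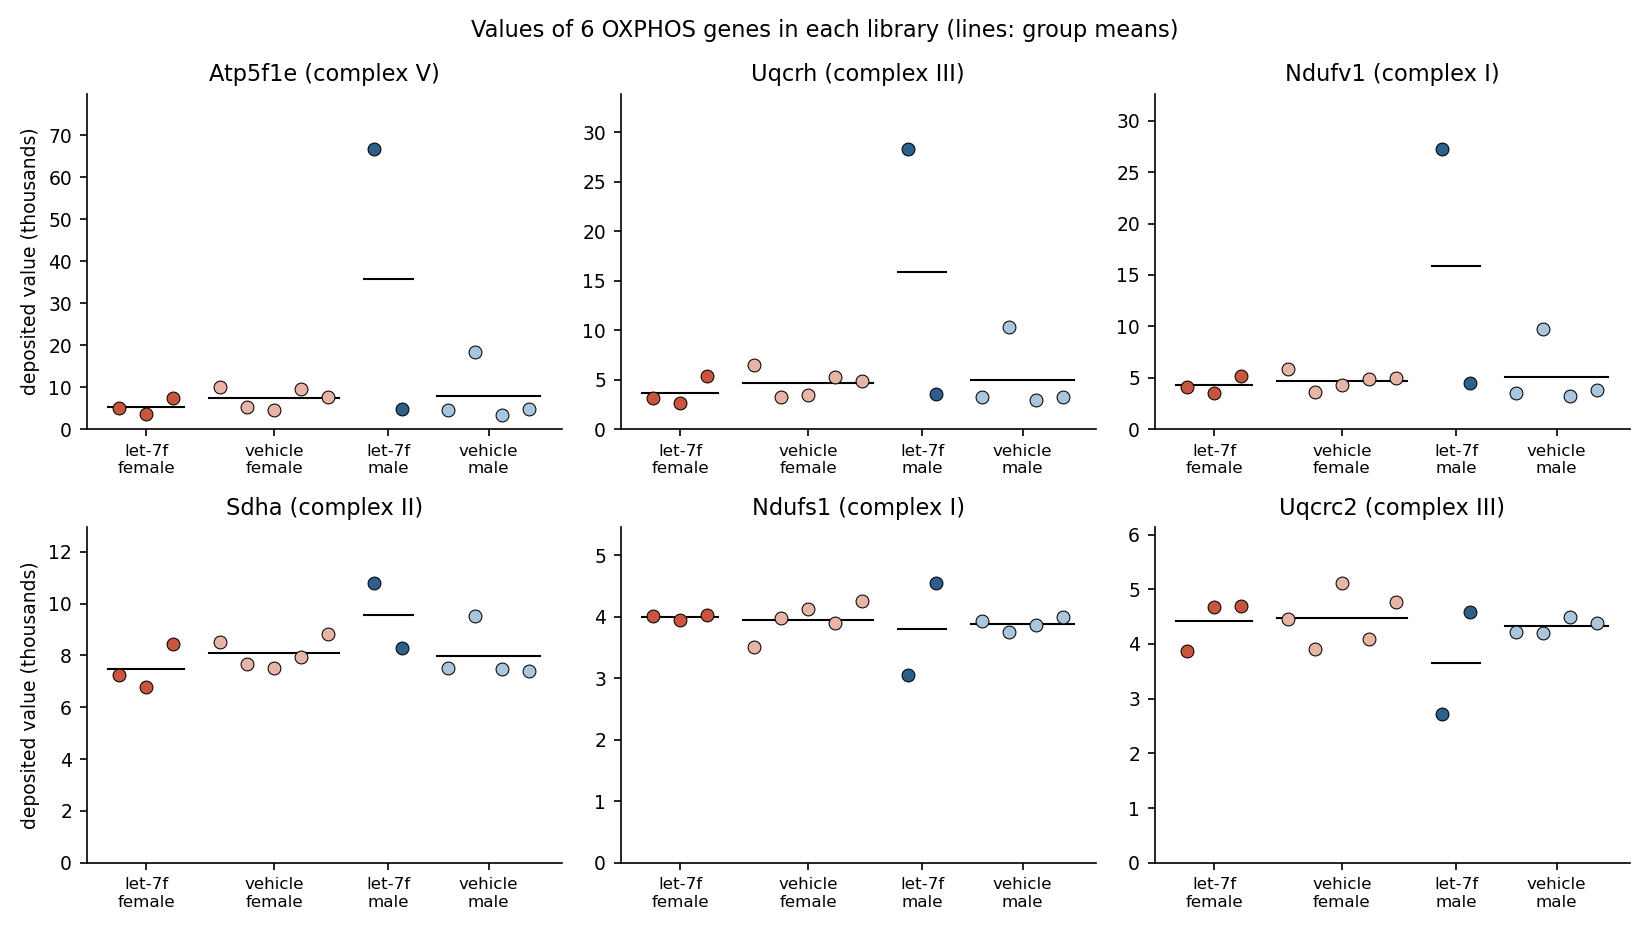
Deposited values (y axis, divided by 1000) of 6 OXPHOS genes in each library, one point per fetus, with lines at the group means. Atp5f1e, Uqcrh and Ndufv1 show let-7f male 1 far above all others (66597, 28248 and 27198), Sdha spans 6767 to 10795, and Ndufs1 and Uqcrc2 have let-7f male 1 as their lowest point (3048 and 2719).

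The size of the step in let-7f male 1 went with transcript length, among members and among other genes alike. Members had short transcripts, with a median of 693.5 bases over the 78 tested with an annotated length (315 to 3171), against 2794 bases over 15713 tested genes. The 26 shortest members (315 to 568 bases) had a median log2 difference of 2.16 from the vehicle males, the next 26 (571 to 931 bases) 1.65 and the 26 longest (955 to 3171 bases) 1.12. All tested genes in the same length ranges had medians of 1.65, 1.13 and 0.17. In vehicle male 2, set against the other vehicle males, the members' medians were 1.47, 1.22 and 0.94, and those of all genes were 1.25, 0.99 and 0.27. Spearman's rho between length and the log2 difference was -0.487 over members and -0.432 over all genes in let-7f male 1, and -0.534 and -0.571 in vehicle male 2, all points sharing 1 library and its depth. In the opposite direction, let-7f female 2, which was low for the members, had rho values of 0.359 and 0.321. The part of length in the results was not tested.

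**Figure D5:**
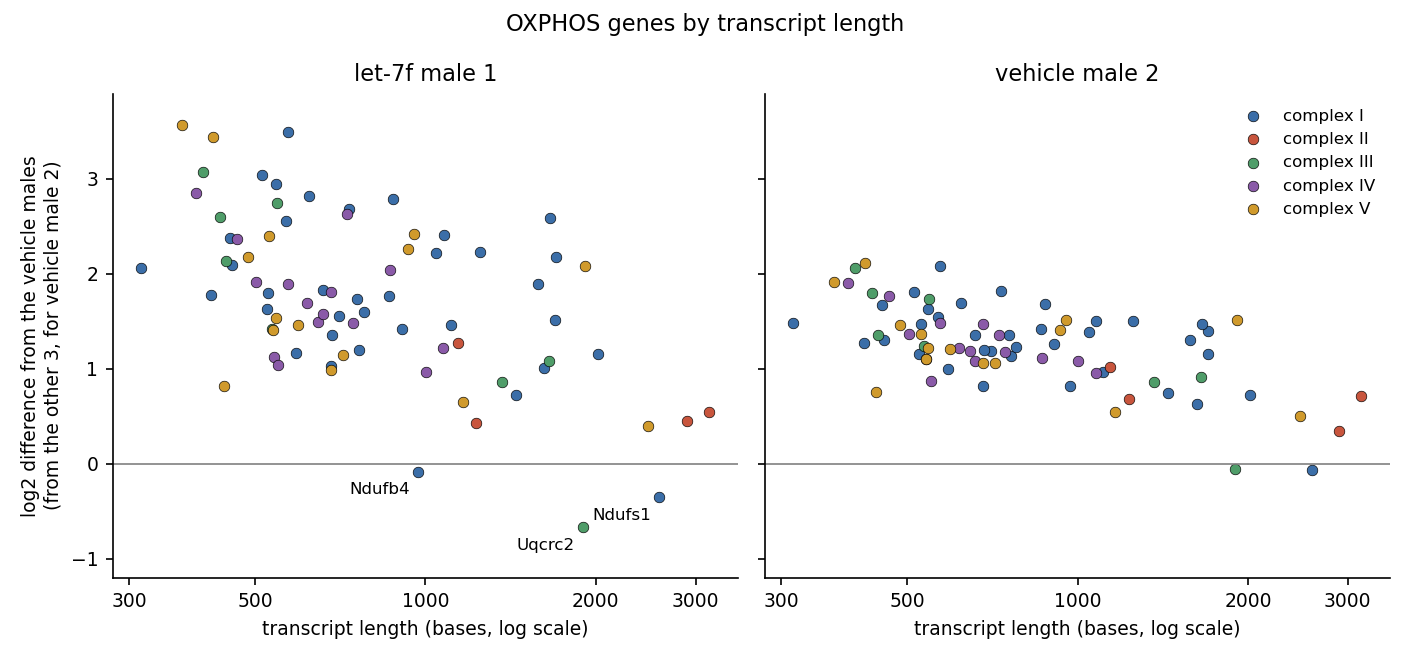
Log2 difference of each OXPHOS gene from the vehicle males (y axis; from the other 3 vehicle males in the right panel) against annotated transcript length (x axis, bases, log scale) in let-7f male 1 and in vehicle male 2, coloured by complex. Short transcripts lie highest, and Ndufs1, Uqcrc2 and, in let-7f male 1, Ndufb4 lie below 0.

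Levels were compared between genes per 1000 bases of transcript, as means over the 14 libraries. The order was led by complex V: Atp5f1e (26431 per 1000 bases), Atp5f1b (22509), Atp5pd (21245) and Atp5po (16964), followed by Cox4i1 (15088), Atp5me (12084), Atp5f1a (11929) and Uqcrh (11240). The first place rested on let-7f male 1: without it Atp5f1e stood at 16296, below Atp5f1b (18553) and Atp5pd (17138), and Atp5me at 6921. In complex I the highest with all libraries was Ndufb7 (8409) and in complex II Sdhb (4304). The lowest of the 79 with a length were the tissue-restricted isoforms Cox8b (24.5), Cox6a2 (75.5), Cox7a1 (146) and Cox4i2 (178). Leaving out let-7f male 1 and vehicle male 2, the highest library was a median of 1.996 times the lowest per member. That is the spread of 1 gene across libraries, much of which genes may share. It cannot decide whether neighbours in this order differ, and their order within each library was not tested.

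Tissue-restricted isoforms of complex IV formed a small part of their pairs. Per length, Cox4i2 made up 0.994% of the Cox4i2 and Cox4i1 pair on average in let-7f females, against 1.001% in vehicle females, and 1.17% and 1.98% in let-7f males, against 0.775% to 0.985% in vehicle males. Both let-7f males thus lay above all vehicle males for this share, though vehicle females reached 1.13%. The same held for Cox8b, too low to be tested, in its pair with Cox8a. That share was 0.805% to 1.93% in let-7f males, against 0.310% to 0.714% in vehicle males. These shares were not tested. No background of other gene pairs is given, so the separation is not read as a trait of these isoforms. Cox7a1 made up 3.84% to 5.98% of its pair with Cox7a2 in let-7f males, against 1.77% to 3.84% in vehicle males, where the ranges met. Cox6b2, the testis isoform, was the least rare, at 12.4% and 17.4% in let-7f males, against 10.5% to 14.9% in vehicle males. Cox6a2, a muscle isoform, made up 0.816% to 0.989% in let-7f males, against 0.881% to 1.25% in vehicle males, so the 4 tested isoforms did not share a direction. Heart muscle markers were higher in let-7f males for 11 of 12 genes (median log2 change 0.89, 0 called), against 49.9% of all genes. Without let-7f male 1 they were higher for 3 of 12 (median -0.18), and their part in the isoform shares was not tested.

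Subunits made from mitochondrial DNA did not follow the nuclear ones. The 12 measured held 0.359% and 0.714% of all values in let-7f males, against 0.806%, 0.507%, 0.672% and 0.504% in vehicle males, and let-7f male 1 was the lowest of the 14 libraries. In females they held 0.606%, 0.838% and 0.651% with let-7f, against 0.780%, 0.643%, 0.680%, 0.483% and 0.542% with vehicle. The ratio of the mitochondrial to the nuclear sum was 0.173 in let-7f male 1, 0.357 in vehicle male 2 and between 0.514 and 1.25 in the other 12 libraries. None of the 12 passed by limma in either sex. In let-7f females 9 of 12 were higher (median 0.21), against 49.1% of all genes. In let-7f males 5 of 12 were higher (median -0.21), against 49.9%, and the male median was 0.30 without let-7f male 1. At an unadjusted p under 0.05 limma had 0 of the 12 in females and 1 in males, and edgeR and DESeq2, which also called none, had 1 in each sex.

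The gene mt-Co1, for the catalytic subunit of complex IV, had values of 29795 and 79045 in let-7f males, against 93128, 52984, 73390 and 59391 in vehicle males. Its neighbour mt-Co2, whose product receives electrons from cytochrome c, had 44200 and 23696 in let-7f males, against 16568, 25706, 15520 and 12447 in vehicle males (log2 change 0.93, SE 0.392, adjusted p = 0.447). Without let-7f male 1 the log2 changes were 0.22 for mt-Co1 and 0.48 for mt-Co2, against -0.49 and 0.93 with all libraries. In let-7f male 1, 6 of the 12 were the lowest of all libraries and 2 the highest.

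Promoters are shown for 4 members that differ in the size of their step in let-7f male 1: Atp5me (9.74 times the vehicle male mean), Atp5f1e (8.54), Sdha (1.35) and Ndufb4 (0.913). Each is the 120 bases before the annotated start (RefSeq, GRCm38.p6, minus strand): Atp5me at chr5:108434400-108434519, Atp5f1e at chr2:174464102-174464221, Sdha at chr13:74350241-74350360 and Ndufb4 at chr16:37654369-37654488. Capitals mark matches to the NRF1 motif (GCGCA, any base, GCGC), or to the ETS motif CCGGAAG as read from its other strand (CTTCCGG).
Atp5me: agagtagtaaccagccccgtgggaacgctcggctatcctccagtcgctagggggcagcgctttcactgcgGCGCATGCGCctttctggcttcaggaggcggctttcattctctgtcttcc
Atp5f1e: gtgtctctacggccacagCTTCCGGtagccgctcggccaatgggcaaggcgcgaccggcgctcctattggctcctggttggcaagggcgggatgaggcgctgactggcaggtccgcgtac
Sdha: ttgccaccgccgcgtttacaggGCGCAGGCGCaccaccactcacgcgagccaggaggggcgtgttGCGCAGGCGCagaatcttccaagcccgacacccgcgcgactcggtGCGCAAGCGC
Ndufb4: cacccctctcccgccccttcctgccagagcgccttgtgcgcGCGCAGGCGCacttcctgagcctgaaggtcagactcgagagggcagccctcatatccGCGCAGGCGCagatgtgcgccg

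NRF1 and the ETS factor GABP are known regulators of nuclear respiratory genes, and YY1 is another. Promoters of 68 members were found, each 250 bases before to 50 after the start, and both strands were searched. The NRF1 letters were in 18 members (26.5%), against 5.19% of 27025 genes with a listed promoter, the ETS letters in 16 (23.5%, against 9.93%), and the YY1 letters AAGATGGCG in 7 (10.3%, against 1.64%). Those 27025 were all genes with a listed promoter, not only the genes tested here, so the 2 sets differ in more than OXPHOS membership. The GC box GGGCGG was in 27 (39.7%, against 38.2%), and at least 1 of NRF1, ETS and YY1 in 35 (51.5%, against 15.1%). The ratio of let-7f male 1 to the vehicle male mean had a median of 2.68 over the 18 members with the NRF1 letters and 3.14 over the 50 without. With and without the ETS letters the medians were 3.26 (16 members) and 2.95 (52 members), for the YY1 letters 3.72 (7 members) and 3.01 (61 members), and for the GC box 2.71 (27 members) and 3.72 (41 members). The ranges overlapped widely, from 0.913 to 9.74 with NRF1 and from 1.61 to 8.54 without.

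Among further lists of genes that serve the complexes, limma, edgeR and DESeq2 called none in either sex. At an unadjusted p under 0.05 limma had 0 in females, against 0.81% of all genes. In males it had 6 of the 78 mitochondrial ribosomal proteins and between 0 and 3 genes of every other list named here. The share of all genes in males was 10.8%. For the directions that follow, 49.9% of all genes were higher in let-7f males. Assembly factors of complex I were higher in let-7f males for 14 of 17 genes (median 0.45), those of complex II for 3 of 4 (0.37), of complex III for 5 of 6 (0.42), of complex IV for 17 of 21 (0.57) and of complex V for 5 of 5 (0.41). Mitochondrial protein import genes were higher for 22 of 23 (0.48) and mitochondrial ribosomal proteins for 78 of 78 (0.61). Enzymes of the citric acid cycle, which feed complexes I and II, were nearly balanced (8 of 13 higher, median 0.08), as were regulators of mitochondrial biogenesis (11 of 20, median 0.19). Cytochrome c and other electron carriers, a list that also holds the subunit genes Cyc1 and Ndufab1, were higher for 7 of 10 (0.36). Without let-7f male 1 the male medians of all these lists lay between -0.13 and 0.09. In females the same lists had medians between -0.15 and -0.03.

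Some members may share reads with other genes. Matches in other genes, with at least 95% identity over at least 50% of the transcript, were annotated for 13 of 79 members. For 4 of them (Atp5mc2, Atp5mg, Atp5po and Uqcrb) a matching gene was itself measured. The highest of these was Donson, which matched 287 of the 530 bases of Atp5po and had a mean value of 935.9 against 8991. Such a match need not be a copy of the whole gene. The left-out Cox5b-ps was not among these matches, so the search did not find every related gene. Cox5b-ps had values of 6643 and 1153 in let-7f males, against 926, 2885, 844 and 944 in vehicle males. These were close to or above those of Cox5b, so the division of reads between Cox5b and Cox5b-ps is uncertain. Their sum, 10960 and 2064 in let-7f males against 1782, 4762, 1756 and 1773 in vehicle males, was again highest in let-7f male 1 and next in vehicle male 2, while the order of the other males differed from that of Cox5b alone.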

How the data were processed

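The authors deposited 1 normalized signal per gene and library, described per the labels as normalized counts; RNA was poly-A selected and made into TruSeq Stranded libraries, per the labels' protocols. Per the submitters' processing notes the build was GRCm39 and the tools were kallisto 0.50.1, DESeq2 1.48.2, Trimmomatic 0.39, MultiQC 1.28 and FastQC 0.12.1, with no role or order. In each library 100% of values came out whole, within 1e-06, after division by 1 factor, and were taken as reads, though with kallisto named they may be rounded estimated counts (27709934 to 42898166 per library). A row without a gene name, 0.0180% to 0.0334% of a library, was left out.

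Titles gave each fetus its group and sex. Genes with a mean value of at least 10 (17400, leaving out 732) were fitted as log2(value + 1) with limma 3.58.1 in R 4.3.3 (1 mean for each of 4 groups, eBayes with a trend, 10 residual degrees of freedom). Changes of low genes are understated on this scale. The Benjamini-Hochberg adjustment ran across every tested gene at a threshold of 0.05. The procedure was tested on simulated data in which each gene varied independently. That simulation cannot speak to a shift shared by many genes of 1 library. On the recovered reads, edgeR 4.0.16 called 0 genes in each of the 4 comparisons, and DESeq2 1.42.0 called 2 in females, 58 in males, 8 in their mean and 24 in their difference.

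The other alternatives were pseudocounts of 0.5 and 5, no filter or a mean of at least 50, rescaling by the 75th percentile or by TMM, weighting libraries, robust eBayes, blocking on replicate number, fitting the compared groups alone, and omitting each library in turn. Leaving out let-7f male 1 and vehicle male 2 together was added after seeing the data.

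Lengths and 3′ UTRs came from GENCODE M21 on GRCm38 (shortest principal transcript), an older build than the one named, and promoters from RefSeq on GRCm38.p6. Copies were sought with BLAST+ 2.17.0+. Members, gene lists and tests were chosen with earlier results of these data known. By rule, members described by name are the 2 highest per length of each complex, the complex IV isoform pairs, the 3 smallest p-values in each direction of each comparison and subunits with a well-known role. Ndufa11, Atp5me and Sdhd, and mt-Nd6, mt-Nd3, mt-Co1 and mt-Co2 were named after their values were seen. Others, such as Atp5po, Cox5b-ps and the genes with sequence matches, were also named outside the rule. A further member that the rule picked is not reported here; it stays in all counts and medians.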

Additional observations from a re-analysis of the deposited data

Results flagged for a closer look

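Vehicle male 2 stood far above the other 3 vehicle males. The gap to its nearest neighbour, as a share of the range of the 4 vehicle males, was 0.949 for the OXPHOS share of all values, 0.97 for complex I, 0.897 for complex II, 0.911 for complex III, 0.971 for complex IV and 0.928 for complex V, each past Dixon's critical value for 4 samples. Among members of complex I the gap was 0.913 for Ndufa2, 0.887 for Ndufb7 and 0.916 for Ndufv1. For complex II it was 0.937 for Sdha, 0.894 for Sdhb and 0.834 for Sdhc, and for complex III 0.96 for Uqcr11, 0.884 for Uqcrfs1 and 0.956 for Uqcrh. In complex IV it was 0.93 for Cox4i1, 0.925 for Cox4i2, 0.921 for Cox5b, 0.876 for Cox6a1, 0.868 for Cox6a2, 0.931 for Cox6b1, 0.947 for Cox6b2, 0.976 for Cox6c, 0.912 for Cox7a1, 0.926 for Cox7b and 0.897 for Cox8a. In complex V it was 0.981 for Atp5f1b, 0.899 for Atp5f1e, 0.88 for Atp5if1 and 0.94 for Atp5pd. Vehicle female 1 was the highest vehicle female by a gap of 0.711 for Ndufa12 and 0.789 for Ndufb4, both past the value for 5 samples. Chance flags about 1 in 20 groups; here 32 of 76 were, and they are not independent, since all come from the same libraries. The cause was not tested.

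For 3 members every let-7f female lay below the vehicle female mean and every let-7f male above the vehicle male mean. The share of all genes with this pattern is not given, so the count is not read as a trait of the members. The log2 ratio of the group means in males was 1.74 for Cox4i2, 1.45 for Cox6b2 and 0.275 for Sdhc. It came almost wholly from let-7f male 1: let-7f male 2 alone against the vehicle male mean gave 0.016, 0.080 and 0.0010 for the same genes. Whether the sexes differ was tested only by the fitted difference, which passed for none of them by limma (adjusted p = 0.522 for each); this pattern of sides itself was not tested.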

How the results depend on the processing

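In females 0 members were called under every alternative, and the median stayed below 0. Leaving out 1 library at a time, members called ranged from 0 to 66 in males, 0 to 5 in the mean and 0 to 55 in the difference, each upper end without let-7f male 2. In males the median ran from -0.10 to 1.66 (complex I -0.16 to 1.78, III -0.13 to 1.78, IV -0.058 to 1.70, V -0.10 to 1.56), and in the difference from 0.089 to 1.83 (complex I 0.047 to 1.99, III 0.14 to 1.97, IV 0.10 to 1.81, V 0.093 to 1.83), the low end without let-7f male 1. In males 79 of 82 members were higher with all libraries and 20 of 82 without let-7f male 1, so most changed sign. Among the members picked by p-value, those that changed sign were in females Ndufs5 (-0.11 to 0.31) and Cox6a2 (-0.056 to 0.14); in males Uqcrc2 (-0.67 to 0.084) and Ndufs1 (-0.35 to 0.23); in the mean Uqcrc2 (-0.34 to 0.033) and Ndufs1 (-0.17 to 0.12); in the difference Uqcrc2 (-0.65 to 0.10), Ndufs1 (-0.37 to 0.21) and Ndufb4 (-0.50 to 0.027). Without both let-7f male 1 and vehicle male 2, the median difference was 0.39, and Uqcrc2 and Ndufs1 stood at 0.070 and 0.21 in males, 0.026 and 0.11 in the mean and 0.087 and 0.19 in the difference. Deviations from the group means of fetuses with the same number in the titles correlated at -0.289, 0.0313 and -0.326 in females and -0.354 and -0.576 in males. With 2 let-7f males their deviations mirror each other, so this check cannot decide whether the numbers pair the fetuses. With the replicate number as a block, Cox6a2 in females was -0.033 and Ndufs1 in the mean 0.0093, the male median was 0.70, and 0 members were called. The cause of these changes was not tested.

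The number of fetuses limits the male results, with 2 let-7f males. Over all genes, limma called 1 in females (0 to 18 over the settings, 18 with library weights), and 0 in males, in the mean and in the difference (DESeq2 called 58, 8 and 24; without let-7f male 2, limma called 4390, 874 and 3206). No other setting (pseudocount, filter, rescaling, spread model, library weights, groups fitted, edgeR or DESeq2) called a member.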

Other observations

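Among the subunits made from mitochondrial DNA, mt-Nd6, the complex I subunit read from the strand opposite to the others, was singled out after its values were seen because the male groups did not overlap. Its values were 6574 and 4343 in let-7f males, against 3721, 3948, 4164 and 2586 in vehicle males, and the log2 change was 0.59 (SE 0.300, limma adjusted p = 0.447), and 0.29 without let-7f male 1. In females it stood at 3317, 5258 and 4148 with let-7f, against 4684, 3544, 4677, 2296 and 3954 with vehicle, where the groups overlapped. The value of mt-Nd3, another complex I subunit, was 1819 in let-7f male 1, the highest of all libraries, and 426 in let-7f male 2, against 430, 976, 602 and 411 in vehicle males.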
